A study of Mus musculus with 2 samples.

Results

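The H2 genes of the mouse are its major histocompatibility complex, and 34 of the 21938 protein-coding genes in the GENCODE M21 annotation carry an H2- symbol on chromosome 17. They were taken by that symbol alone, with no measured value used. By common usage 24 were counted as class I and 9 as class II, and H2-Ke6, a steroid dehydrogenase gene named for its place in the complex, belonged to neither class. ATAC-seq, which maps open DNA by the adapters a transposase can insert there, was applied to primary megakaryocyte progenitors, the blood precursors of platelet-forming cells. The donors were male C57BL/6J animals, 5 to 6 weeks old, and 2 libraries of 50000 cells each formed 1 group with no other condition. The labels number the libraries as biological replicates and give them the same donor record.

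Class I molecules sit on almost all nucleated cells and on platelets, where a heavy chain paired with beta-2 microglobulin shows peptides from inside the cell to CD8 T cells. Class II molecules are pairs of an alpha and a beta chain that show peptides from engulfed material to CD4 T cells, and are known mainly from B cells, dendritic cells and macrophages. Class I promoters are known to carry an NF-kB site called enhancer A, an interferon response element, and an S-X-Y module. Class II promoters are built around the same S-X-Y module, which RFX, CREB and NF-Y proteins bind and on which the coactivator CIITA acts.

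The values are peak lists on mm10, in which every summit has the signal that the authors' peak caller gave it. Summits in the same interval were merged into a region carrying the signal of its strongest summit. The list used throughout, unless another is named, is the conservative list made from both libraries and thresholded on the irreproducible discovery rate (IDR), a measure of how well a peak's rank repeats. It held 80938 regions, of which 276 lay in the H2 interval, chr17:33996017-37483552 in mm10, from the 3′ end of H2-K1 to the 5′ end of H2-M2. A gene was counted as having a promoter region when a summit lay within 1 kb of any of its annotated transcript starts. Read counts were not used here, so depth is unknown, and an unlisted region means only that no peak passed the authors' threshold.

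The cell label was set beside marker genes. Promoter regions were listed for 9 of 15 megakaryocyte genes, 4 of 8 B cell genes, 5 of 8 dendritic cell genes, 5 of 8 macrophage and monocyte genes and 2 of 8 T and NK cell genes. The share among all protein-coding genes was 62.1%. Itga2b (12.6), Gp1ba (13.9) and Vwf (11.7), genes of megakaryocytes and platelets, had a region, and Fli1 and Ppbp did not. Cd79a, Ms4a1, C1qa, Cd3e and Cd8a, which define other blood cells, had none, while other genes of those cells had one, among them Pax5 (17.1), Ebf1 (13.0) and Cd22 (12.8) of B cells, Cd3d (16.0) and Lck (11.8) of T cells, Adgre1 (15.6) and Ly6c2 (15.6) of macrophages and monocytes, and Siglech (13.1) and Flt3 (12.9) of dendritic cells. Of these 9, 4 had a higher signal than any listed megakaryocyte gene. A part of other cells in the H2 regions was not tested.

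Among the H2 genes 18 of 34 had a promoter region, a share of 52.9%, against the background of 62.1%. Class II genes had one in 8 of 9 cases (88.9%, 95% Wilson interval 56.5 to 98.0%). Class I genes had one in 9 of 24 cases (37.5%, interval 21.2 to 57.3%). The intervals cover counting error only, and the genes of a class share ancestry and neighbourhood, so no test was made of the classes. Replicate 1's own list gave 9 class I and 8 class II genes, where 58.9% of all genes had a region. Replicate 2's own list gave 9 class I and 6 class II genes, where the background was 58.2%. The same 9 class I genes were listed in the conservative list and in each library's own list.

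Less strict lists added few genes. The replicated and pseudoreplicated lists of both libraries held promoter regions for 11 class I and all 9 class II genes, where 69.8% and 69.2% of all genes had one. Replicate 1's pseudoreplicated list held 11 and 8, with a background of 67%, and that of replicate 2 held 9 and 9, with 66.6%. With windows of 0.5 and 2 kb the counts were 9 and 8 each time, with backgrounds of 59.8% and 65.4%. They were also 9 and 8 with only the strongest summit of a region (61.7% of all genes), only the gene's 5′ end (56.7%), only starts of protein-coding transcripts (60.2%) or any base of a region in the window (62.9%). Among the stronger 50% of regions they were 7 and 7, with 45.8%, and in both libraries' own lists 9 and 6, with 56.8%.

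**Figure D1:**
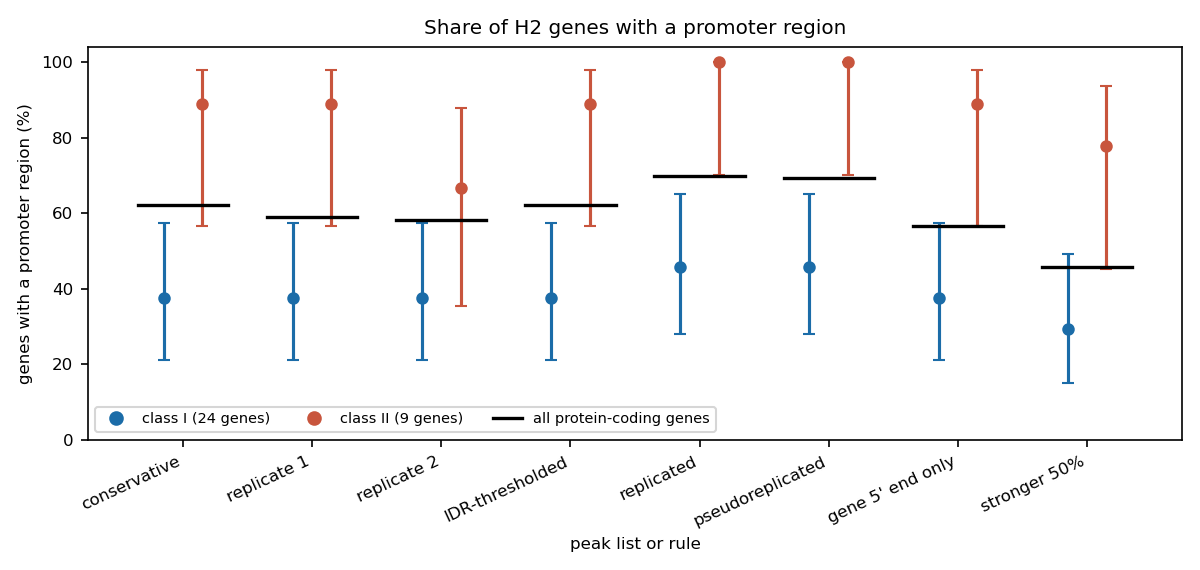
Share of class I and class II H2 genes with a promoter region (%, points, with 95% Wilson intervals) in each peak list or under each counting rule, with the share of all protein-coding genes as a black line. Class I points lie below the black line in every column and class II points above it. The class II interval reaches the line in every column but the replicated and pseudoreplicated lists. The class I interval reaches it with the gene's 5′ end only and among the stronger 50% of regions.

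Where a region was present, its signal was of the usual size for a promoter. The median promoter signal was 13.9 over the 9 class I genes and 11.7 over the 8 class II genes, and 11.4 over all 13618 genes with a region. Of the class I genes 6 of 9 lay above the median of all genes, as did 6 of 8 class II genes. In replicate 1's list 6 of 9 and 3 of 8 lay above that list's median, in replicate 2's list 6 of 9 and 4 of 6, and among the stronger 50% of regions 5 of 7 and 2 of 7. H2-Q4 stood highest, at rank 89 of the 13618. The median for class I counts only genes that had passed the authors' threshold and says nothing of the other 15.

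**Figure D2:**
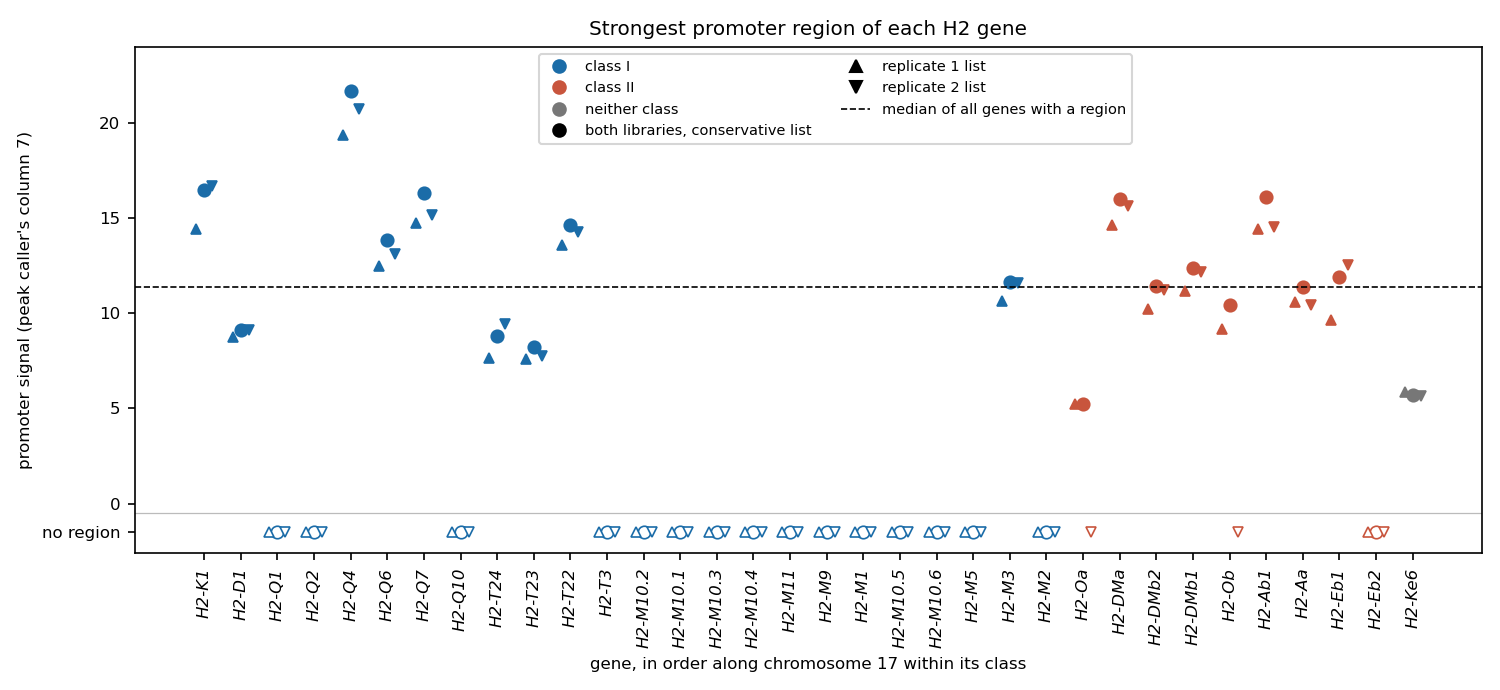
Signal of the strongest promoter region of each H2 gene (vertical axis) in the conservative list (circles), in replicate 1's list (upward triangles) and in replicate 2's list (downward triangles), with open symbols where the list had no region. H2-Q4 is the highest at 21.7, and all M10 genes lie in the row without a region.

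The classical class I genes H2-K1 and H2-D1 encode the transplantation antigens that present peptides to most CD8 T cells. The region at H2-K1 had a signal of 16.5 in the conservative list, 14.4 in replicate 1 and 16.7 in replicate 2. The region at H2-D1 had 9.13, 8.75 and 9.10. The H2-K1 value was the higher of the pair in each library's own list and in the conservative list made from both. Their replicate ranges did not overlap. Both genes carry the textbook class I promoter layout, which is why their sequences are shown with that of H2-Q4, the strongest, and of H2-Q7. Each line runs from 200 bases before to 20 bases from the RefSeq start on, on the gene's strand of GRCm38.p6 (mm10). The windows are H2-K1 at chr17:34000328-34000547 (minus strand), and on the plus strand H2-D1 at chr17:35262894-35263113, H2-Q4 at chr17:35379417-35379636 and H2-Q7 at chr17:35438955-35439174. Capitals mark matches, on either strand, to the NF-kB motif (GGG, then any 2 bases, TT, any base and CC), the interferon response motif (GAANNGAAA), the X2 box (TGACG), the X1 box (CNNNGCAAC) and the Y box (CCAAT, read as ATTGG on the other strand).

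H2-K1: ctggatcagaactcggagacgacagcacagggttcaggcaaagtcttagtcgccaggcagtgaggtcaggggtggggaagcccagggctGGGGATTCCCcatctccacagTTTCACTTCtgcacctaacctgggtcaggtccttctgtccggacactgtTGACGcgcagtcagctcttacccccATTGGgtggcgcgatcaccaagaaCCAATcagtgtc
H2-D1: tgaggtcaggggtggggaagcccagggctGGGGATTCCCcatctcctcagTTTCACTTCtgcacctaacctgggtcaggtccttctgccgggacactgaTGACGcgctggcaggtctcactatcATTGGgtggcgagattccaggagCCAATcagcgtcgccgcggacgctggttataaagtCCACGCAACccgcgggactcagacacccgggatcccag
H2-Q4: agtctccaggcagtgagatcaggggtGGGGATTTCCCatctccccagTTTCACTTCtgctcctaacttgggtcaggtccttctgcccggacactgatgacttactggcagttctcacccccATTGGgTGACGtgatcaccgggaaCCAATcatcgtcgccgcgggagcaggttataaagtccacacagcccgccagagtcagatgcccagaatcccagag
H2-Q7: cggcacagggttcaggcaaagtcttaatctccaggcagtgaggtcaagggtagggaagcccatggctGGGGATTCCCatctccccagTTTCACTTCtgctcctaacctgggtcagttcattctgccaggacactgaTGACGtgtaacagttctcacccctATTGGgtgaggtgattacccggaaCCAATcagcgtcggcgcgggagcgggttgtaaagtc

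Going downstream in H2-K1, H2-D1, H2-Q4, H2-Q6 and H2-Q7, an NF-kB match was followed by an interferon response match and then by a pair of Y boxes on opposite strands. The first bases of the NF-kB and interferon matches lay 20 to 21 bases apart in these 5 genes. From there the first Y box lay 73 to 74 bases on, and the Y boxes lay 23 to 24 bases from each other. The summit nearest to these boxes lay 4 bases from the middle of a Y box in H2-Q6, 11 in H2-Q4 and H2-Q7, 18 in H2-K1 and 21 in H2-D1. The X2 letters lay nearer to that summit than the Y box in H2-D1 (4 bases), H2-Q4 (5) and H2-K1 (7). They lay farther in H2-Q7 (35), while H2-Q6 had no X2 match. In H2-K1, H2-D1 and H2-Q7 the X2 match lay upstream of both Y boxes, but in H2-Q4 it lay between them. The H2-Q4 match is therefore not at the same place in the layout. The NF-kB matches lay inside the same regions but farther from a summit, at 71 to 103 bases.

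RefSeq windows of 300 bases, from 250 before to 50 after a start, were at hand for 31 of the 34 genes and for 16522 protein-coding genes in all. H2-Ab1, H2-Q1 and H2-T24 were not among them. The NF-kB motif was found in the windows of 5 of 8 class I genes with a promoter region, in none of the 14 without, and in 4.81% of all windows. The interferon response motif was found in 6 of those 8 (the same 5 genes and H2-M3), in 2 of the 14 (H2-Q10 and H2-M2), and in 7.05% of all windows. A Y box was present in all 8 and in 11 of the 14, against 38.7% of all windows. The TATA motif (TATAAA) went the other way, with 3 of 8 and 11 of 14, against 12.9% of all windows. That direction was also seen over all protein-coding genes, with 7.05% of windows with a promoter region and 23.3% of those without. The Sp1 motif (GGGCGG), found in 48.0% of all windows, was in 1 of the 8 and 1 of the 14. Over all protein-coding genes it was in 63.35% with a promoter region and 20.4% without. A match is a run of letters and was not tested as a binding site, and family members share descent, so their matches are not independent.

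**Figure D3:**
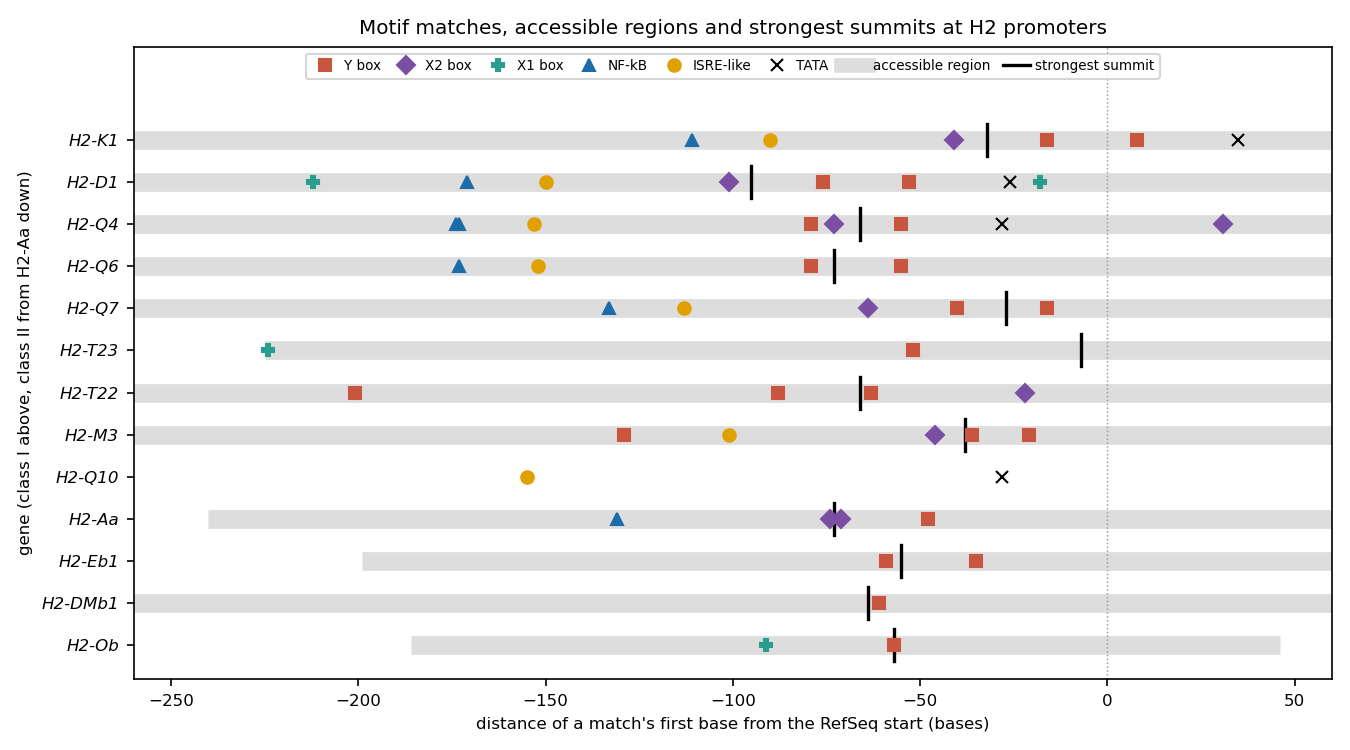
Positions of motif matches (symbols, first base) relative to the RefSeq start (bases, horizontal axis) at 13 H2 promoters, with the accessible region as a grey bar, drawn only within the plotted range, and its strongest summit as a black line. At H2-K1, H2-D1, H2-Q4, H2-Q6 and H2-Q7 the summits lie near the red Y boxes and, at H2-K1, H2-D1 and H2-Q4, nearer still to a purple X2 match, with the NF-kB triangles 71 to 103 bases away, and H2-Q10 has no bar. The X2 match near the H2-Q4 summit lies between its Y boxes, and those of H2-K1 and H2-D1 lie upstream of theirs.

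The Q genes encode nonclassical class I molecules, among them Qa-2, and 3 of 6 had a promoter region. H2-Q4 had a signal of 21.7 in the conservative list, 19.4 in replicate 1 and 20.7 in replicate 2. H2-Q7 had 16.3, 14.8 and 15.2, and H2-Q6 had 13.9, 12.5 and 13.1. The order H2-Q4, H2-Q7, H2-Q6 was the same in each library's own list, with no overlap of replicate values between neighbours in it. The lists made from both libraries gave these regions the same signals as each other. H2-Q7 and H2-Q6 hold much repeated sequence, as given below, and their order is uncertain to that extent. H2-Q1 and H2-Q10 had no promoter region in any list, and H2-Q2 had a weak one, of 3.96 in the replicated and pseudoreplicated lists of both libraries and of 3.43 in replicate 1's pseudoreplicated list.

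H2-Q10 encodes a secreted class I protein known from the liver. Its window was the closest of all class I windows to that of H2-D1, with 82.2% of aligned positions identical, yet no list held a region there. Its sequence, at chr17:35469889-35470108 on the plus strand, is shown for comparison with H2-D1 and was chosen after its values were seen.

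H2-Q10: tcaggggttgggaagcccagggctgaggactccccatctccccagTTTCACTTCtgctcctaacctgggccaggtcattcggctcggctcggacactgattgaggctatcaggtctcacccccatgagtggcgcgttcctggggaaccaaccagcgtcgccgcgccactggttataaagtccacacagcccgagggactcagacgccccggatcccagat

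The interferon response match of H2-D1 was intact in H2-Q10, with 0 differences over its letters. The NF-kB match differed at G2A and T6C, and the downstream Y box at T5C, with H2-D1's base first, positions counted from 1 at the match's first base in the H2-D1 line, and H2-Q10's base last. The X2 box differed at G2T, A3G and C4A. The upstream Y box differed at 2 of its 5 positions, 1 of them a missing base. Whether these differences bear on the missing region was not tested.

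The T genes encode nonclassical class I molecules such as Qa-1, a ligand of inhibitory receptors on NK cells, from H2-T23. A promoter region was listed for 3 of 4. The region of H2-T22, whose product is a ligand of some gamma delta T cells, had a signal of 14.7 in the conservative list, 13.6 in replicate 1 and 14.3 in replicate 2. That region also lay within 1 kb of a start of the gene Gm6034. H2-T24 had 8.79, 7.66 and 9.44. H2-T23 had 8.21, 7.59 and 7.78 at a summit 928 bases from its coding start, and a second region at 147 bases from that start had 7.85, 7.30 and 7.60. The replicate values of H2-T24 and H2-T23 overlapped, so their order is within the spread. H2-T3, which encodes the thymus leukaemia antigen, known from intestinal epithelium, had no region in any list.

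The M genes lie farthest from H2-K1, and 1 of 12 had a promoter region. That was H2-M3, whose product presents formylated peptides of bacteria and mitochondria, with 11.7 in the conservative list, 10.7 in replicate 1 and 11.6 in replicate 2. Its region spanned 4 summits. The 6 M10 genes, known from vomeronasal neurons, and H2-M11, H2-M9, H2-M1 and H2-M2 had none in any list. H2-M5 had a weak region, of 4.37 in the replicated and pseudoreplicated lists of both libraries and in replicate 1's pseudoreplicated list, and none in the others. The M10 windows resembled each other at 72.4 to 90.3% of aligned positions over 15 pairs, so their shared lack of a region is not 6 independent events.

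Of the class II genes, H2-Aa, H2-Ab1 and H2-Eb1 encode the surface chains I-A alpha, I-A beta and I-E beta. H2-Aa had a signal of 11.4 in the conservative list, 10.6 in replicate 1 and 10.4 in replicate 2. H2-Eb1 had 11.9, 9.65 and 12.6. Its replicates differed by 0.38 on the log2 scale, the widest gap of the 16 H2 genes with a promoter region in both libraries' lists. H2-Ab1 had 16.1, 14.4 and 14.5 at a region 5.44 kb upstream of its nearest coding start, beside the start of a noncoding transcript. At the coding start of H2-Ab1 the region had 10.8, 9.36 and 10.8. Taken at coding starts, the 3 surface chain genes therefore lay between 10.8 and 11.9 in the conservative list, and their replicate ranges overlapped.

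The promoters of H2-Aa (chr17:34287804-34288023, minus strand), H2-Eb1 (chr17:34305667-34305886, plus strand) and H2-DMb1 (chr17:34152991-34153210, plus strand) are shown because the summit of each sits on or beside a letter match of the class II module. The windows and capitals are as above.

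H2-Aa: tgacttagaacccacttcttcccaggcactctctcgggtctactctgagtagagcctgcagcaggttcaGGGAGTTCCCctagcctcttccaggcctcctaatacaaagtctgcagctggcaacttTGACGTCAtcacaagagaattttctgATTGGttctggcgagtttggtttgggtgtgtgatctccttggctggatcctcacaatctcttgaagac
H2-Eb1: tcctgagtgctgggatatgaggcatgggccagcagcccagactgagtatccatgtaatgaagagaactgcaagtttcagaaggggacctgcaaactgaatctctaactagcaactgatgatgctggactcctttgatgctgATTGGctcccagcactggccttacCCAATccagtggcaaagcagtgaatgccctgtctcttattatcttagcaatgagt
H2-DMb1: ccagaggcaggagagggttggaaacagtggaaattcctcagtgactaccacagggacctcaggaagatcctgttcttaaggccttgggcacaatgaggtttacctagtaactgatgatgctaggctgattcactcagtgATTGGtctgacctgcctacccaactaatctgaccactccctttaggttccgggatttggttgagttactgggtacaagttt

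The summit lay 2 bases from a Y box in H2-Eb1, 5 in H2-DMb1 and 2 in H2-Ob, counted between the summit and the middle of the match. In H2-Aa it lay 1 base from the X2 box and 27 from the Y box. A Y box was present in 7 of the 8 class II windows and the exact X1 letters in 3, H2-Oa, H2-DMa and H2-Ob. The X1 letters were in 14.0% of all windows. The printed H2-Aa and H2-Eb1 lines hold GCAAC upstream of a Y box but lack the outer C, so they were not counted. A window without the exact letters is thus not shown to lack an X1 box. An X1 box followed within 10 to 30 bases by a Y box was found in H2-Oa, with a gap of 28 bases, and in H2-Ob, with 25. This arrangement was found in 0.527% of all windows. In H2-Ob these boxes lay inside the accessible region. In H2-Oa they lay outside any accessible region, as did the Y box of H2-Eb2, which had no promoter region. The Y box of H2-DMb2 lay outside too, but the RefSeq window used for that gene overlapped no accessible region. The H2-DMb2 promoter region, of 11.4, has its summit 53 bases from the GENCODE coding start. Whether a Y box lies inside it is not shown by that window. No class II window held the interferon response motif, TATAAA or GGGCGG. Over both classes and H2-Ke6, 13 genes had a Y box inside an accessible region, and in 11 of them a summit lay within 25 bases of it. The nearest pair of summit and Y box in each gene was used, which favours genes with several of either. The same share over all promoters was not counted, so this count has no background. In windows of 75 bases each side of the strongest summit, a Y box was found in 19 of the 28 H2 promoter regions (67.9%). The share was 32.5% of the 83 regions at other promoters in the interval, 25.2% of all 17755 promoter regions and 18.4% of all regions.

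The remaining class II genes encode proteins that act inside the cell. H2-DMa, H2-DMb1 and H2-DMb2 encode the chains of H2-M, the exchanger that loads peptides onto class II. H2-DMa had a signal of 16.0 in the conservative list, 14.6 in replicate 1 and 15.7 in replicate 2, at its main coding start. Its weaker regions, from 2.72 to 4.82, lay at upstream starts within 1 kb of starts of Brd2, and the RefSeq window used for H2-DMa lies there. H2-DMb1 had 12.4, 11.2 and 12.2, and H2-DMb2 had 11.4, 10.3 and 11.2. The alpha chain gene was higher than either beta chain gene in each library's own list and in the conservative list made from both.

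H2-Oa and H2-Ob encode H2-O, an inhibitor of H2-M known from B cells. H2-Oa had a signal of 5.21 in the conservative list and in replicate 1, and no region in replicate 2's IDR list. H2-Ob had 10.4 in the conservative list and 9.17 in replicate 1, and none in replicate 2's IDR list, at a noncoding start 10.03 kb from its coding starts. Its coding start had a region of 5.86 that neither library's own IDR list held. Replicate 2's pseudoreplicated list held regions for both genes, at 4.53 for H2-Oa and 9.66 for H2-Ob. H2-Eb2 had no region in the IDR lists, 5.11 in the pseudoreplicated list of both libraries and 4.89 in that of replicate 2. The lowest IDR among its ranked summits was 0.176, above the threshold of 0.05. H2-Ke6 had 5.72 in the conservative list, 5.87 in replicate 1 and 5.65 in replicate 2, at the 4.26th percentile of genes with a region.

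The H2 interval held 79.1 regions per Mb, against 37.4 on the rest of chromosome 17 and 29.7 over all chromosomes. It is also denser in genes, with 49.6 protein-coding 5′ ends per Mb against 9.65 on the rest of the chromosome. Outside promoters the densities of regions were 47.3 and 29.1 per Mb. The class II span had 161 regions per Mb, the T span 97.5, the K span 93.6, the D and Q span 47.2 and the M span 35.9, and the sequence between these spans had 101. Outside promoters the class II span had 76.3, the T span 65.0, the D and Q span 28.3, the M span 30.0 and the sequence between them 57.1. The K span had 0 outside promoters, and its density rests on 3 regions in 32.0 kb. Within 50 kb of its 5′ end a class II gene had 12 to 19 regions with a median of 14, a class I gene 0 to 16 with a median of 5, and the median over all protein-coding genes was 6. The lowest values were 0 at H2-M9 and H2-M1 and 1 at H2-M11.

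**Figure D4:**
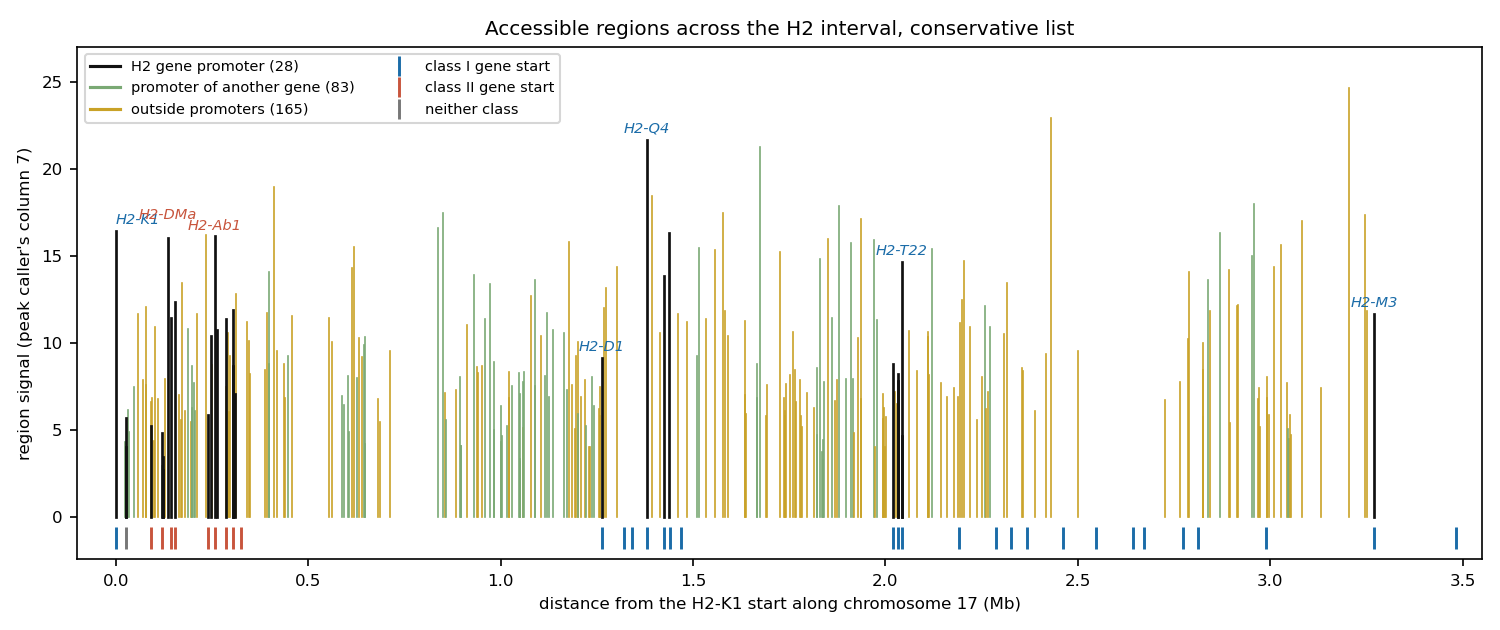
Signal of the 276 accessible regions (vertical lines) against distance from the H2-K1 start along chromosome 17 (Mb), coloured by H2 promoter, other promoter or neither, with gene starts of each class as ticks below. The class II starts lie among many lines near the left end, while most M gene starts toward the right lie between sparse lines.

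Of the 276 regions 111 lay at promoters, 39 in introns, 15 in exons and 111 between genes. The strongest region of the interval was not at an H2 gene. It lay at chr17:37203630-37204144, 2.80 kb from the olfactory receptor gene Olfr94, with a signal of 24.7 in the conservative list, 22.6 in replicate 1 and 20.8 in replicate 2. The promoters of H2 genes, of which that of H2-Q4 was the third in strength, are left aside in what follows. The next region lay at chr17:36431133-36432026 among the M10 genes, 30.7 kb from H2-M10.4 and 4.64 kb from a pseudogene start, with 22.9, 18.4 and 22.7. The promoter of Gtf2h4, a subunit gene of the general factor TFIIH, had 21.2, 18.9 and 20.2. An intronic region of BC051142 had 19.0, 15.02 and 17.7. The region after that, with 18.4, 16.8 and 16.2, lay 92 bases from the start of H2-Q5, which the annotation calls a polymorphic pseudogene. With no annotated gene start within 1 kb, the next 2 in strength lay 10.97 kb from 2300002M23Rik (17.5, 12.6 and 17.1) and 1.94 kb from the pseudogene Rbx1-ps (17.1, 16.1 and 14.4).

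The strongest region outside promoters in the class II span lay at chr17:34234862-34235362, 3.73 kb upstream of H2-Ob, with 16.2 in the conservative list, 14.8 in replicate 1 and 15.4 in replicate 2. It and the strongest region of the interval are shown, 75 bases each side of the summit on the plus strand of mm10, at chr17:34235095-34235245 and chr17:37203716-37203866. Capitals mark motif matches: in the first the CTCF core motif (CC, any 3 bases, AG, any 2 bases, GGC, any base and C) on the minus strand, spanning the summit, and a RUNX motif (TGTGGT), and in the second the X1 letters CNNNGCAAC, also spanning the summit.

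Region starting at 34234862: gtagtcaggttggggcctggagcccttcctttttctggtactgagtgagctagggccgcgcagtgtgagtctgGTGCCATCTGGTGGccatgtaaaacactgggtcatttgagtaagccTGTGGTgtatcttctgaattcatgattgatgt
Region starting at 37203630: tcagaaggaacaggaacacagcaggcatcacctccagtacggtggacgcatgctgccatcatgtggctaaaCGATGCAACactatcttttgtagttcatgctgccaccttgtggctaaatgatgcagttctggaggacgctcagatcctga

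The CTCF motif was found around the summits of 7.88% of the 165 regions outside promoters in the interval and of 6.69% of all regions, and in none of the 28 H2 promoter regions. The RUNX motif was found in 26.7% of the 165 and in 19.8% of all regions. The X1 letters were found in 6.06% and 6.93%. The GATA motif (AGATAA) was found in 6.67% and 11.95%, and the ETS motif (GAGGAAGT), which PU.1 can bind, in 4.24% and 6.71%. All regions include the 17755 promoter regions, so this background is unlike the 165. In those promoter regions the shares were 5.05% for CTCF, 10.1% for RUNX, 8.6% for the X1 letters, 5.27% for GATA and 3.4% for ETS. The shares over all regions outside promoters were not counted. These shares describe letters around summits and no factor was measured.

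H2 pseudogenes were left out of the members, and 6 of 11 (54.5%) had a promoter region, against 5.52% of 13523 annotated pseudogenes and 62.1% of protein-coding genes. The 11 are annotated as unprocessed or polymorphic, whereas the 13523 are annotated pseudogenes of all types, so the shares compare unlike kinds. H2-Q5, H2-T10 and H2-Bl are the polymorphic ones among those with a region. H2-Q5 had 18.4, H2-T10 had 15.4, H2-K2 had 11.8, H2-T-ps had 10.6, H2-Bl had 8.41 and H2-M6-ps had 7.40. H2-Bl was in neither library's own list, and H2-M6-ps was in that of replicate 1 alone. The H2-T10 region also lay 0.162 kb from the 5′ end of the protein-coding gene Gm19684. That of H2-T-ps lay in an intron of the protein-coding gene Gm7030.

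Family members share sequence, and reads that fit several places are often discarded or placed at random. How the authors treated them is not given in the sources used here. The share of 31-base words within 1 kb of the 5′ end that occur elsewhere in the genome was therefore counted. Its median was 30.4% over the 9 class I genes with a promoter region, with a range of 8.12 to 70.9%, and 8.17% over the 15 without, with a range of 0.203 to 27.6%. H2-Q6 (70.9%), H2-Q7 (68.1%) and H2-T23 (61.4%) were above 50%. The median over the 8 class II genes with a region was 3.75%, and over the 139 other protein-coding genes of the interval 1.93%. The strongest regions of H2-DMa and H2-Ob lay outside the windows in which their words were counted. The ranges overlapped: H2-Q1 (27.6%), H2-Q2 and H2-M10.3 (22.3% each) and H2-M10.5 (21.2%), all without a region, had more repeated sequence than H2-Q4 (19.0%), H2-D1 (14.4%), H2-T24 (8.47%) and H2-M3 (8.12%), which had one. The part of repeated sequence in the missing regions was not tested. The signals of H2-Q6, H2-Q7, H2-T23 and, at 43.4%, H2-T22 may hold reads of each other or of other copies. Their values are uncertain to that extent.

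**Figure D5:**
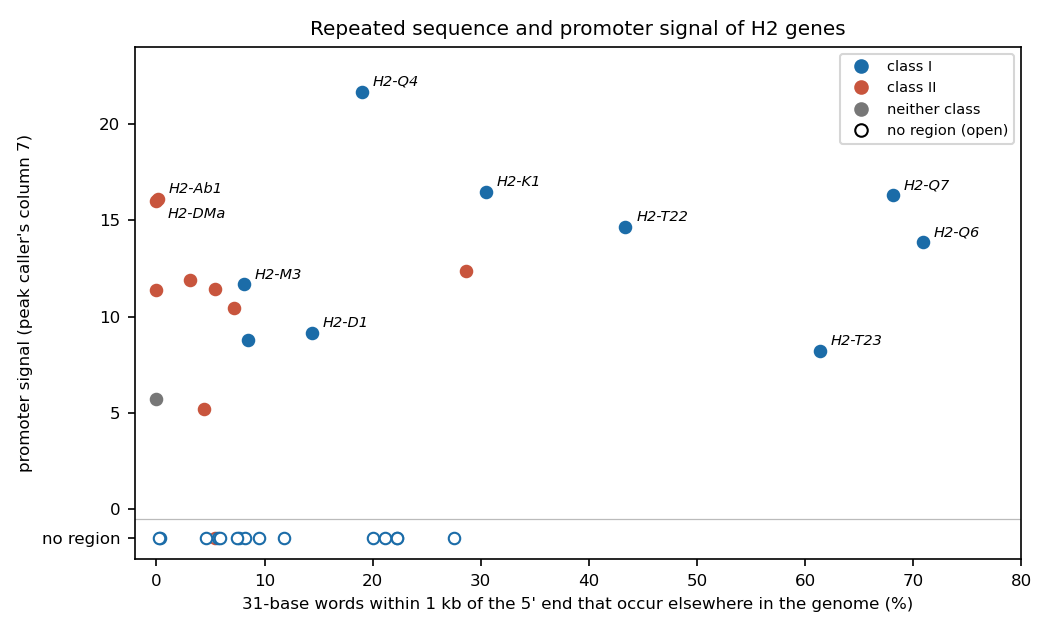
Promoter signal (vertical axis) of each H2 gene against the share of 31-base words near its 5′ end that occur elsewhere in the genome (%, horizontal axis), coloured by class, with genes without a region in the lowest row. Genes without a region lie at or below 27.6% on the horizontal axis, and H2-Q6, H2-Q7 and H2-T23 lie above 50%. The signals of H2-DMa and H2-Ob come from regions whose summits lie 15970 and 10073 bases from that 5′ end. For these genes the axes describe different places.

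Base composition also differed. CpG observed over expected, in 1 kb around the 5′ end, had a median of 0.523 over the class I genes with a promoter region and 0.165 over those without. The same medians over all protein-coding genes were 0.704 and 0.204. Class II genes with a region had a median of 0.200, close to that of all genes without a region. H2-DMa, at 0.973, was the highest of the class II genes. Its 5′ end is an upstream start within 1 kb of starts of Brd2, and the summit of its region of 16.0 lies 15970 bases away. The value of 0.973 is thus not that of its main coding start. For H2-Ab1 the 5′ end is likewise a noncoding start. H2-Q10, without a region, was at 0.710.

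The partners of the H2 genes were taken from a list of 52 genes, of which 51 were found as protein-coding genes. All 14 genes of class I loading and peptide supply had a promoter region, Canx (13.7), Psme1 (11.1) and Pdia3 (10.96) being the highest, which encode a chaperone, a proteasome activator subunit and a disulfide isomerase. B2m, the gene of beta-2 microglobulin, had a signal of 9.30 in the conservative list, 8.36 in replicate 1 and 9.66 in replicate 2. Tap1, a subunit of the peptide transporter, and Psmb9, an immunoproteasome subunit, share a region of 10.8, in the class II span. Of the class II pathway 4 of 6 had a region, Lgmn (14.7), March1 (14.1) and Cd86 (12.9) being the highest. Cd74, the invariant chain that escorts class II, and Ctss, a protease that trims it, had none in the IDR lists and 2.96 and 2.82 in the pseudoreplicated list of both libraries.

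All 18 regulators had a promoter region, with Nfyc (18.6) and Stat2 (16.9) among the highest. Ciita, the class II coactivator, had 9.49 in the conservative list, 9.06 in replicate 1 and 7.74 in replicate 2. Nlrc5, its class I counterpart, had 12.3, 10.4 and 12.4. Rfx5, a subunit of the factor that binds the X1 box, had 12.1, 11.5 and 11.4. All 7 interferon receptor and kinase genes had a region, led by Ifnar1 (15.7), Jak1 (14.0) and Ifnar2 (11.6). Of the class I-like genes outside chromosome 17, 4 of 6 had one, led by Mr1 (13.5), Fcgrt (13.0) and Cd1d1 (9.11). The background for these counts is 62.1%, and a promoter region does not show that a gene was transcribed.

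The libraries resembled each other in the interval as they did elsewhere. Of replicate 1's 224 interval regions 83.5% were shared with replicate 2 (95% Wilson interval 78.1 to 87.8%), against 84.6% of all its regions. Of replicate 2's 221 interval regions 86.0% were shared with replicate 1, against 87.4% of all. The log2 ratio of signals, replicate 2 over replicate 1, had a median of 0.06 over 187 shared interval regions and 0.08 over 52201 shared regions in all, with no scaling between libraries stated. Over the 16 H2 genes with a promoter region in both lists it was 0.08, with a range of -0.06 to 0.38.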

How the data were processed

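ATAC-seq of 2 libraries in 1 group was analysed from peak lists on mm10, per the labels. The authors' deposited lists give each summit a signal value and a -log10 p-value, with no scaling between libraries stated. The deposited lists come from each library alone and from both together. A deposited ranked list gives each summit pair a score, the -log10 of its global IDR. Not given in the sources used here are the aligner, peak caller, versions, duplicate handling, multi-mapping reads and any transposase shift, which could change which regions are listed and where summits lie.

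Summits of an interval were merged into regions. Starts of all transcripts came from GENCODE M21, and sequence from GRCm38.p6, which is mm10. Promoter windows and their sequences are RefSeq's, on GRCm38.p6, and the first listed window of a gene was used. Alignments were global (Biopython 1.88). Shared regions had at least 50% of either covered. Analyses ran in Python 3.11.15 with pandas 2.3.3, scipy 1.17.1, pysam 0.24.0 and numba 0.67.0, and the promoter, motif and word counts were tested on simulated data.

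The members and gene lists were chosen with earlier results of these data known. The rule named every H2 gene, with values in each list for all class II genes, H2-K1, H2-D1, H2-M3, H2-T23 and the 6 class I genes of highest signal, the 3 highest partners per group, and the 5 strongest regions outside H2 promoters. Values of a few listed genes are not reported here. Genes are not replicates, so no test was made over them. Alternatives were other lists, windows of 0.5 and 2 kb, other starts, the stronger 50% of regions and each library alone.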

Additional observations from a re-analysis of the deposited data

How the results depend on the processing

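The counts of genes with a promoter region stayed within 1.5 times the reported counts under all 12 alternatives, at 7 to 11 for class I and 6 to 9 for class II. The class II count could not rise past that bound, because the class holds only 9 genes. Leaving out a replicate gave 9 class I genes each time and 6 to 8 class II genes, the lower without replicate 1, where H2-Oa and H2-Ob were missing. The class II share was then 66.7%, against 58.2% of all genes. The share of all genes moved with the list, from 45.8% for the stronger 50% of regions to 69.8% in the replicated list. The class I median signal of 13.9 became 11.7 in the replicated list and in the pseudoreplicated list of both libraries, where the weak H2-Q2 and H2-M5 regions enter, and 12.5 to 13.1 with 1 replicate left out. The class II median, 11.7, stayed at 10.4 to 12.4. The interval held 433 regions in the replicated list and 117 among the stronger 50%, and 221 to 224 with 1 replicate left out. The share of replicate 1's regions found in replicate 2 was 96.9% against replicate 2's pseudoreplicated list. The alternatives using protein-coding transcript starts alone, or any base of a region, were chosen after seeing the data and gave 9 and 8 genes. No paired analysis was possible because there was 1 group. Depth is unknown, so the absence of a region is not shown to be closed chromatin.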

Other observations

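The ranked list of summit pairs held 608 pairs in the H2 interval, 426 of them within an IDR of 0.05. Of these 426, 2 were not in the conservative list. They belong to 1 region, chr17:36231196-36231711, of signal 14.97, between the T and M genes, with its strongest summit 2.08 kb from the start of Gm18604. No other list analysed here held it. Its share of repeated 31-base words was 2.47%. Over all chromosomes 143 of 118889 such pairs were likewise not in the conservative list.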
